A study of Homo sapiens with 2 samples.

Results

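The splicing factors described here are the SR proteins, the hnRNP proteins, the snRNP core and U1 and U2 proteins, the SF3A and SF3B subunits, the U2AF proteins and the PRPF proteins. They were chosen by gene symbol alone, as every array probe annotated to an SRSF, HNRNP, SF3A, SF3B, SNRPA to SNRPG, U2AF or PRPF gene. Antisense and pseudogene names were dropped, which removed 3 symbols. This gave 124 of the 58199 probes on the array, for 70 of the 34757 genes with a symbol. Of these probes 22 belonged to 12 SR protein genes, 45 to 22 hnRNP genes, 21 to 11 snRNP genes, 12 to 9 SF3 genes, 4 to 3 U2AF genes and 20 to 13 PRPF genes.

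Splicing removes introns from the nascent transcript. SR proteins bind exons through an RNA recognition motif and promote exon use through a domain rich in arginine and serine, while hnRNP proteins coat nascent RNA and often oppose exon use. The snRNPs are built on a ring of Sm proteins: U1 finds the 5′ splice site, U2AF and U2 with SF3A and SF3B find the branch point and the 3′ splice site, and the U4/U6.U5 tri-snRNP, which holds several PRPF proteins, brings the catalytic core. THOC2 is the large subunit of the THO complex, which is recruited to spliced transcripts and prepares them for export from the nucleus.

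A375, an established human melanoma cell line, was transfected with si-THOC2 or with the control siRNA NC, in each case with a lipid reagent, and total RNA was taken at 48 h. An siRNA guides the cell's own nuclease to mRNAs that pair with it. There was 1 culture and 1 one-colour Agilent array in each condition, both arrays on 1 slide and in 1 scan, so the conditions could not be tested against each other and all differences below are differences of 1 array pair. Several siRNAs against THOC2 are listed in the methods, and the one on the array is not named in the sources used here. The source field of each sample contradicts its title and description, and the titles and descriptions were followed. THOC2 itself, the targeted gene, had processed signals of 136 (NC) and 40.9 (si-THOC2) at one probe and of 67.3 and 35.1 at the other. These are log2 fold changes of -1.42 and -0.63, so both probes were lower on the array whose title and description assign it to si-THOC2. Their mean was -1.03, or -0.51 under an alternative background correction (normexp).

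Each value below is the processed signal, which is the spot intensity after background subtraction, and each log2 fold change is si-THOC2 minus NC after each array was reduced by its 75th percentile of log2 signal. The percentiles were 6.62 (NC) and 6.31 (si-THOC2), so a probe with equal signals on both arrays had a log2 fold change of 0.31. Signals of different probes cannot be compared as RNA levels. Probes spotted repeatedly gave a technical SD of the log2 fold change of 0.06 at a mean log2 signal over 8 (244 probes), 0.11 at 6 to 8 (36 probes), 0.29 at 4 to 6 (6 probes) and 0.44 under 4 (14 probes), which leaves out the spread between cultures. The melanocyte lineage marker SOX10 gave 6196 (NC) and 5196 (si-THOC2), a log2 fold change of 0.06 after scaling. In all, 5 of 8 lineage markers on the NC array and 6 of 8 on the si-THOC2 array were well above background. PMEL and TYR were not well above background on either. Signals before scaling were summed over each marker list, with the brightest probe of each gene, detected or not. The sums were 7063 and 5823 for the melanocyte lineage, most of it from SOX10. They were 80.3 and 94.5 for leukocyte, 89.9 and 111 for keratinocyte, 68.4 and 155 for fibroblast and 55.4 and 38.6 for endothelial markers. On each array 3 of 4 leukocyte, 1 of 3 keratinocyte and 1 of 3 fibroblast markers were well above background. So were 3 of 3 endothelial markers on the NC array and 1 of 3 on the si-THOC2 array. The fibroblast marker DCN gave 62.4 and 149 (1.56) at its detected probe. The part of these markers in the results was not tested.

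Some probe sequences are shown first, because what a probe can detect sets how its value can be read. Positions are those of the deposited annotation (hg19). HNRNPA3, an hnRNP A/B protein, has a pair of probes placed on the same 60 bases, chr2:178080329-178080388 on the plus strand. The capitals mark the bases that differ, which are A14G, G42T and C59G, counted from 1 at the 5′ end with the base of the first probe given first.
HNRNPA3, first probe: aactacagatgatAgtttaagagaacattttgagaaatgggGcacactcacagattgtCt
HNRNPA3, second probe: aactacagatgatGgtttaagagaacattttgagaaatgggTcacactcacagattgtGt

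Both SRSF5 probes overlap by 46 bases, in capitals, at chr14:70238119-70238178 and chr14:70238133-70238192 on the plus strand, and so read nearly the same stretch of 1 transcript. They give a check of how closely near-identical probes agreed.
SRSF5, first probe: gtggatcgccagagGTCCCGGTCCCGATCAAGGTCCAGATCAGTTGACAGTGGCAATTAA
SRSF5, second probe: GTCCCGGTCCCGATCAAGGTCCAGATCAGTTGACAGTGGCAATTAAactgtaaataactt

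The SRSF11 probe with the lowest value of its gene lies in the arginine and serine rich stretch that gives SR proteins their name, at chr1:70715651-70715710 on the plus strand. Capitals mark the 10 arginine or serine codons among the 20 codons of its open frame.
SRSF11: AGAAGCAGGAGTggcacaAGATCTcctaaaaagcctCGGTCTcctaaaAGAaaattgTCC

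The last sequences belong to the probe with the lowest log2 fold change among those measured on both arrays, to a probe above 2-fold and to a probe annotated away from its gene. HNRNPCL1 is an intronless relative of HNRNPC (chr1:12908010-12908069, minus strand). The PRPF4B probe (chr6:4057390-4058989, plus strand, which spans an intron) was above background on 1 array only. The HNRNPC probe is annotated on chr2:190788815-190788876, plus strand, whereas the other HNRNPC probes are placed on chromosome 14. Matches of these probes to related genes and pseudogenes were not searched.
HNRNPCL1: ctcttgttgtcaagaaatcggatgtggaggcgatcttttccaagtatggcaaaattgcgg
PRPF4B: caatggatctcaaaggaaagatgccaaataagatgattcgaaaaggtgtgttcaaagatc
HNRNPC: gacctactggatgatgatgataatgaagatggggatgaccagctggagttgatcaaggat

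Splicing factor probes differed by less than 1.5-fold wherever both arrays measured them. Of the 124 probes 116 stood well above background on both arrays, 1 on the NC array only, 1 on the si-THOC2 array only and 6 on neither, which left 118 that were compared. Of these 118 probes 1 was lower by 2-fold or more and 1 was higher, against 3.33% lower and 2.93% higher among all 25345 probes compared. The same 2 probes were the ones past 1.5-fold, against 7.69% lower and 6.14% higher among all probes. Both were above background on 1 array only. In bulk RNA, fewer cells of a kind and less RNA per cell cannot be told apart. None of the 116 probes measured on both arrays passed 1.5-fold in either direction, against 2.94% lower and 3.84% higher among all 22208 such probes. With log2 signals over 7 on both arrays, none of 97 splicing factor probes passed 1.5-fold, against 0.970% lower and 1.22% higher of 12373.

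**Figure D1:**
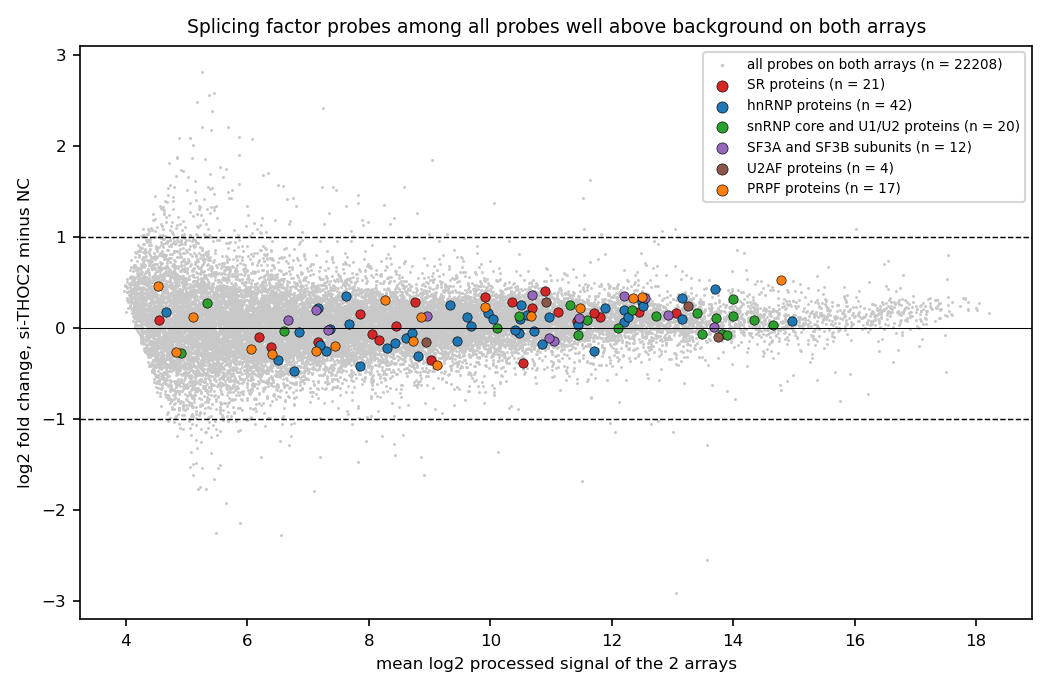
Log2 fold change (si-THOC2 minus NC) against the mean log2 processed signal of both arrays, with all 22208 probes measured on both arrays in grey and the 116 splicing factor probes coloured by family. Dashed lines mark 2-fold. Every coloured point lies between -0.48 and 0.52.

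Over the 116 probes measured on both arrays, log2 fold changes ran from -0.48 (HNRNPCL1) to 0.52 (PRPF19), with a median of 0.09 and an SD of 0.21. Over all probes measured on both arrays the median was 0.04 and the SD 0.32. Of the splicing factor probes 72 (62.1%) lay above 0 and 44 below, against 56.9% above 0 of all probes. This share depended on the scaling: it was 54.3% under quantile normalization (51.2% of all probes) and 48.3% under normexp background correction (50.02% of all probes), where the splicing factor median was -0.0025. By gene, 58 of the 69 genes measured on both arrays (84.1%) had a mean within 1.2-fold of 0, against 69.5% of all 15648 genes. The SD over all probes was 0.44 at a mean log2 signal under 6 and 0.21 over 12, and these shares are not matched for signal.

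Both probes past 2-fold were dim. PRPF4B, a kinase that phosphorylates tri-snRNP proteins, has 3 probes. The one spanning an intron gave 11.2 (NC, not well above background) and 21.0 (si-THOC2), a log2 fold change of 1.21, and was at least 1.77-fold higher when the NC value was set to the lowest signal called well above background. The other PRPF4B probes gave 34.8 and 23.3 (-0.27) and 207 and 145 (-0.21), so probes of this gene lay on opposite sides of 0. HNRNPA2B1 encodes an hnRNP that binds pre-mRNA and sorts small RNAs. Its probe for the transcript ENST00000490912 gave 15.4 (NC) and 3.37 (si-THOC2, not well above background), a log2 fold change of -1.88, for which no fold can be given because the lowest signal called well above background on the si-THOC2 array (15.9), once scaled, exceeded the NC value. The remaining HNRNPA2B1 probes gave 2203 and 1565 (-0.18) and 5116 and 4313 (0.06, but -0.01 after lowess centring). SRSF12, a repressive SR protein, was not well above background on either array (3.09 and 3.41).

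**Figure D2:**
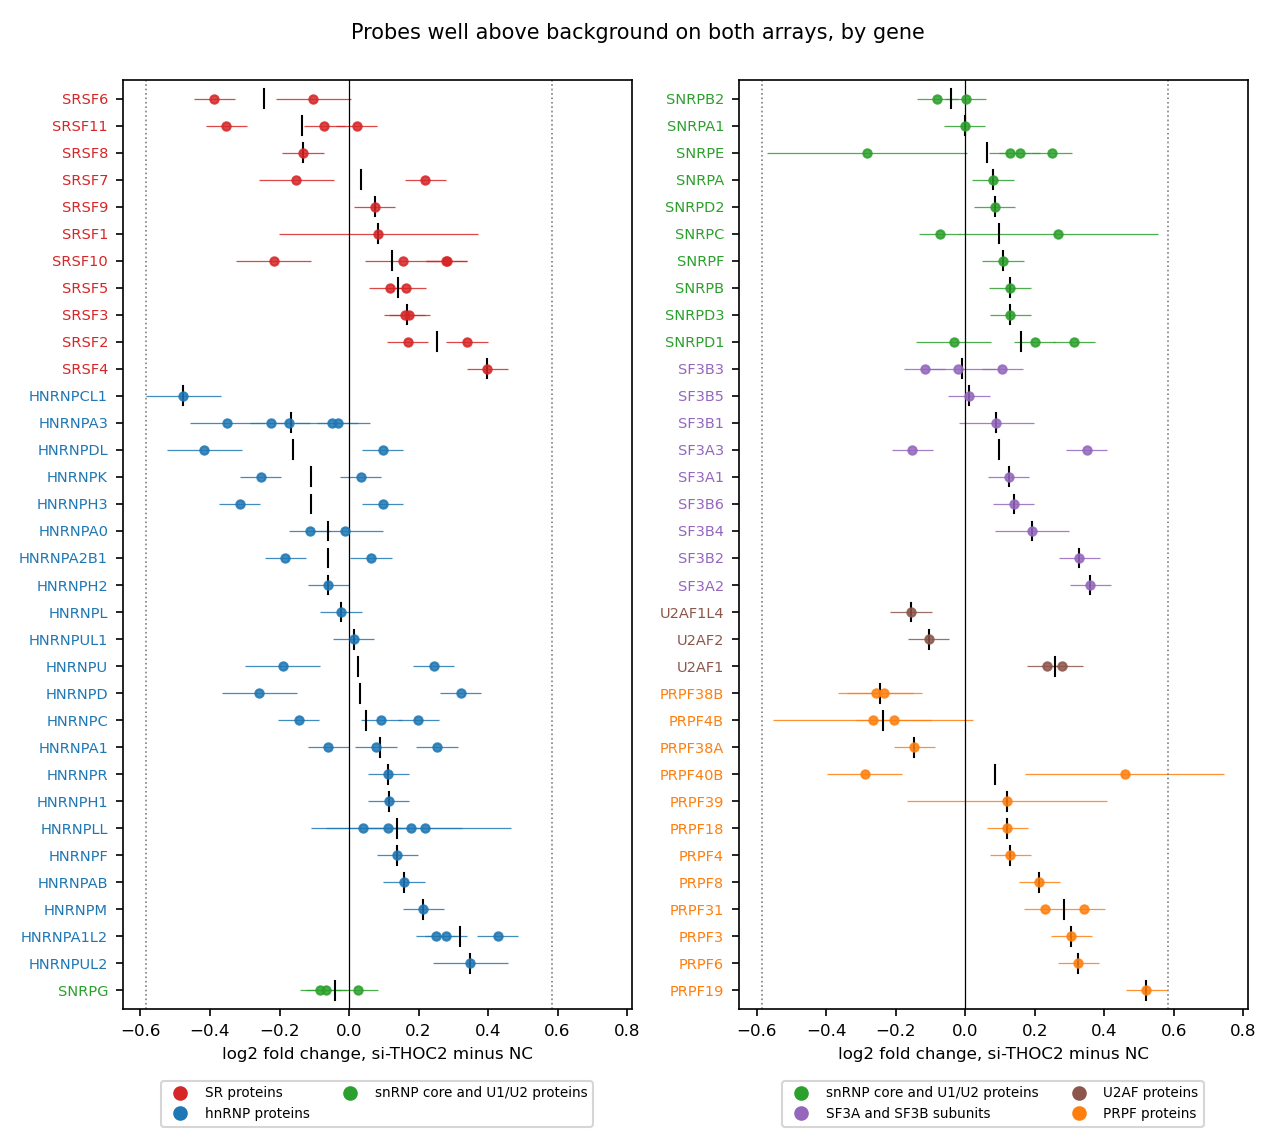
Log2 fold change (si-THOC2 minus NC) of 115 probes measured on both arrays, by gene, with genes ordered within families by their mean (black tick). Horizontal bars are the technical SD of 1 spot at the probe's signal, dotted lines mark 1.5-fold, and no point lies beyond them.

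The Sm ring is the heptamer that wraps the U1, U2, U4 and U5 snRNAs. Its 7 proteins were all measured, by 14 probes, of which 10 were above 0 (median 0.12). Of all probes on both arrays 56.9% were above 0, and 72.3% of those with a mean log2 signal over 12. After lowess centring 8 of 14 were above 0 (median 0.03), against 52.1% of all probes. SNRPF has the only repeated spots among the splicing factors: its 9 spots on the NC array ran from 14151 to 15106 (median 14349), and its 10 spots on the si-THOC2 array from 12197 to 12835 (median 12635). The ranges did not overlap before scaling. After scaling the log2 fold change was 0.11 with a technical SE of 0.01, but it was -0.00 under normexp and -0.04 when centred by block of spots. The technical error of this probe was thus smaller than the effect of the scaling.

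SNRPD1 had the highest mean of the snRNP genes (0.16), from probes of 5368 and 4975 (0.20), 16273 and 16312 (0.31) and 110 and 86.6 (-0.03). SNRPG had the lowest, at 13074 and 10085 (-0.06), 17562 and 13386 (-0.08) and 28479 and 23384 (0.03, and -0.08 after lowess centring). Both encode Sm proteins, and their probes did not overlap in log2 fold change beyond the dimmest SNRPD1 probe. SNRPB (17496 and 15434, 0.13) and SNRPD3 (1508 and 1331, 0.13) stayed above 0 under lowess, quantile, normexp and block centring. SNRPD2 (22509 and 19269, 0.09) turned to -0.01 after lowess centring and to -0.10 when centred by block. SNRPE had 3 probes between 0.13 and 0.25 and a dim one at 36.9 and 24.5 (-0.28), which is within its technical SD of 0.29.

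The proteins bound to U1 or U2 alone lay near 0, except at a dim SNRPC probe. SNRPA, which binds a loop of U1 snRNA, gave 3350 and 2858 (0.08, and -0.05 under normexp). SNRPC, which stabilises pairing of U1 with the 5′ splice site, gave 16392 and 12571 (-0.07) and 40.8 and 39.7 (0.27). The latter is within its technical SD of 0.29. SNRPA1 and SNRPB2 form the pair that binds U2 snRNA. SNRPA1 gave 1238 and 998 (-0.00), and SNRPB2 3206 and 2446 (-0.08) and 4901 and 3957 (0.00). All 3 probes of this pair fell below 0 after lowess centring, quantile normalization or normexp.

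SF3A and SF3B are the multisubunit parts of U2 that hold it at the branch point. Of their 12 probes 9 were above 0 (75%), against 56.9% of all probes. Among brighter probes of the array 64.9% were above 0 at a mean log2 signal of 10 to 12, and 72.3% over 12. The SF3 median was 0.12 (0.07 after lowess centring and 0.02 under normexp). SF3A2 had the highest mean, at 1622 and 1680 (0.36). SF3B2, which contacts RNA upstream of the branch site, gave 5972 and 6052 (0.33). Both stayed above 0 under lowess, quantile, normexp and block centring, with lowest values of 0.22 and 0.14. SF3B1, the largest subunit and the target of splicing inhibitors and of mutations in uveal melanoma, gave 110 and 94.2 (0.09) at its single probe, less than its technical SD of 0.11.

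SF3B3 was the only SF3 gene with a mean below 0 as scaled here (-0.01), from probes at 179 and 143 (-0.02), 3025 and 2629 (0.11) and 2324 and 1730 (-0.12). The strongest signal was that of the small subunit SF3B5, at 14561 and 11841 (0.01, and -0.08 after lowess centring). SF3A3 had probes on opposite sides, 4650 and 4780 (0.35) in one part of the transcript and 2473 and 1796 (-0.15) 1022 bases further towards its 3′ end. The difference between these was larger than the technical SD of 0.06. SF3A1 (527 and 464, 0.13), SF3B4 (146 and 135, 0.19) and SF3B6 (8212 and 7299, 0.14) stayed above 0 under these alternatives.

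U2AF recognises the polypyrimidine tract and the AG of the 3′ splice site. Its small subunit U2AF1 gave 1965 and 1923 (0.28) and 10079 and 9582 (0.24), both above 0 under lowess, quantile, normexp and block centring. The large subunit U2AF2 gave 15926 and 11949 (-0.10), and the U2AF1 relative U2AF1L4 gave 576 and 417 (-0.16), both below 0 under the same alternatives. Both subunits of the heterodimer thus lay on opposite sides of 0, each by more than the technical SD. That SD leaves out the spread between probes of a gene, whose median range was 0.29, and U2AF2 has 1 probe.

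The PRPF proteins had the widest spread of any family (SD 0.30 over 17 probes, against 0.21 over all splicing factor probes). PRPF19, the ubiquitin ligase at the centre of the Prp19 complex, gave 26258 and 30410, the highest log2 fold change among splicing factor probes measured on both arrays (0.52). It was 0.48 under normexp and 0.42 after lowess centring, where a dim PRPF40B probe was higher (0.52). The PRPF proteins of the tri-snRNP were all higher: PRPF8, the scaffold around the catalytic RNA, gave 2934 and 2744 (0.21), and PRPF6, which bridges U5 to U4/U6, gave 5213 and 5270 (0.33). PRPF31, which binds U4 and is mutated in retinitis pigmentosa, gave 991 and 937 (0.23) and 5705 and 5835 (0.34). The U4/U6 partners PRPF3 and PRPF4 gave 310 and 309 (0.31) and 1742 and 1537 (0.13). All 6 probes of these 5 genes were above 0 under lowess, quantile, normexp and block centring, with medians of 0.21, 0.21 and 0.18 under the first 3. PRPF4 was only 0.005 under normexp. As scaled here 56.9% of all probes were above 0, and 72.3% of those with a mean log2 signal over 12. The genes were grouped by their textbook place after their values were seen.

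Other PRPF genes lay on both sides of 0. PRPF38A, which joins the spliceosome before activation, gave 496 and 361 (-0.15), and the related PRPF38B gave 170 and 115 (-0.26) and 80.3 and 55.1 (-0.23). These 3 probes stayed below 0 under lowess, quantile, normexp and block centring. PRPF40B, a U1-associated protein, had probes of opposite sign, 21.9 and 24.3 (0.46) and 105 and 69.2 (-0.29). The first of these has a technical SD of 0.29. PRPF39, another U1-associated protein, gave 36.9 and 32.4 (0.12), and PRPF18, a factor of the second catalytic step, 495 and 435 (0.12, and -0.00 under normexp).

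SR genes lay on both sides of 0, and SRSF7 and SRSF10 had probes on both sides under each scaling. SRSF4 had the highest mean, at 1857 and 1974 (0.40, and 0.26 under normexp). SRSF2, whose mutations occur in myeloid disease, gave 956 and 976 (0.34) and 5859 and 5315 (0.17). SRSF3, one of the smallest SR proteins and an adaptor for mRNA export, gave 2329 and 2119 (0.17) and 8946 and 8068 (0.16). All 5 probes were above 0 under lowess, quantile, normexp and block centring. SRSF5 gave 3839 and 3358 (0.12) and 3534 and 3192 (0.16) at the overlapping probes shown above. They differed by less than the technical SD of 0.06, and the first turned to -0.03 under normexp.

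SRSF6 had the lowest mean of the SR genes, at 1899 and 1171 (-0.39) and, for the noncoding variant NR_034009, 84.7 and 63.7 (-0.10). SRSF11 gave 656 and 414 (-0.35) at the arginine and serine rich probe shown above, 303 and 233 (-0.07) and 387 and 317 (0.02, and -0.00 after lowess centring). SRSF8 gave 337 and 248 (-0.13). SRSF7 and SRSF10 had probes on both sides: SRSF7 gave 1710 and 1606 (0.22) and 168 and 122 (-0.15), and SRSF10, a splicing repressor when dephosphorylated, gave 3 probes from 0.16 to 0.28 and another, late in its long transcript variant, of 100 and 69.6 (-0.22). SRSF1, the founding SR protein, was read by a single dim probe late in its transcript, at 25.1 and 21.5 (0.08), well within its technical SD of 0.29. SRSF9 gave 2987 and 2537 (0.07, and -0.07 under normexp). Over the family 14 of 21 probes were above 0 (66.7%, against 56.9% of all probes). These shares are not matched for signal, and 64.9% of all probes were above 0 at a mean log2 signal of 10 to 12. The family median was 0.12, or 0.03 under normexp.

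Of 42 hnRNP probes 24 were above 0 (57.1%, against 56.9% of all probes) and 18 below. Their median of 0.05 became -0.01 after lowess centring. HNRNPA3 and HNRNPA1L2 lay on opposite sides of 0, whereas HNRNPA1 had probes on both sides under each scaling, and so did HNRNPA2B1 as scaled here but not after lowess centring. All 5 probes of HNRNPA3 were below 0 under every scaling given here. The pair at one position gave 381 and 263 (-0.22) for the first sequence and 114 and 72.4 (-0.35) for the second, a difference little larger than the technical SD of the dimmer probe (0.11). The others gave 1894 and 1494 (-0.03), 410 and 294 (-0.17) and 131 and 102 (-0.05). HNRNPA1L2 lay on the other side at all 3 probes, 1486 and 1427 (0.25), 5829 and 5707 (0.28) and 12726 and 13812 (0.43), again under lowess, quantile, normexp and block centring.

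HNRNPA1, which binds exonic silencers, had the strongest signal of the splicing factors at 34875 and 29694 (0.08, and -0.03 after lowess centring). Another probe gave 658 and 633 (0.25), and a probe of the longer transcript ENST00000546500 gave 1619 and 1253 (-0.06). HNRNPA0 gave 454 and 338 (-0.11) and 184 and 147 (-0.01), and HNRNPAB 1052 and 947 (0.16). HNRNPA1 and HNRNPA1L2 are close relatives, and their probes may not read them apart.

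HNRNPCL1 gave 143 and 82.9 (-0.48), the lowest of the probes measured on both arrays, or -0.34 under normexp. HNRNPC, which forms tetramers on nascent RNA, did not share this: the probe annotated on chromosome 2 gave 4881 and 4521 (0.20), and those on chromosome 14 gave 9840 and 8470 (0.09) and 824 and 601 (-0.15). At the other end HNRNPUL2, a relative of the scaffold protein HNRNPU, gave 195 and 201 (0.35), or 0.22 under normexp. HNRNPU gave 5968 and 5700 (0.24) and, late in its transcript, 175 and 124 (-0.19). HNRNPUL1 gave 915 and 745 (0.01).

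HNRNPD and HNRNPDL, which bind AU-rich elements, had probes of opposite sign: 9085 and 9160 (0.32) and 190 and 128 (-0.26) for HNRNPD, and 1551 and 1338 (0.10) and 299 and 181 (-0.42) for HNRNPDL. HNRNPK gave 3064 and 2530 (0.03) and 4054 and 2742 (-0.25), and HNRNPH3 1144 and 986 (0.10) and 557 and 361 (-0.31). In each of these pairs the lower value came from the probe closer to the 3′ end. HNRNPM (3941 and 3689, 0.21) and the 4 probes of the CD45 splicing regulator HNRNPLL (0.04 to 0.22) were above 0. HNRNPF (1656 and 1471, 0.14), HNRNPH1 (5257 and 4590, 0.11) and HNRNPR (2147 and 1874, 0.11) were also above 0 but turned to -0.00, -0.02 and -0.01 under normexp. HNRNPL (1525 and 1211, -0.02) and HNRNPH2 (478 and 370, -0.06) lay just below 0.

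Probes of one gene often lay on both sides of 0. Of 31 splicing factor genes with more than 1 probe on both arrays, 7 had all probes above 0, 5 all below and 19 (61.3%) had both signs, against 41.5% of 3718 such genes on the array. The median range between probes of a gene was 0.29, against 0.20 for all genes. No splicing factor gene had probes that differed by 1 or more, against 1.72% of all genes. These comparisons are not matched for the number of probes per gene, and more probes make both signs and a wider range likelier. Position in the transcript gave no clear order: in 24 transcripts with probes at least 60 bases apart, the last probe was lower than the first in 13 (54.2%), with a median difference of -0.03, against 57.5% and -0.04 over 2146 transcripts. The pairs of HNRNPD, HNRNPDL, HNRNPK and HNRNPH3 were singled out after their values were seen.

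Values differed with the strength of the signal. Splicing factor medians rose from the class at 6 to 8 to the class over 12, but the 7 dimmest probes did not follow this order. The 32 splicing factor probes with a mean log2 signal over 12 had a median of 0.15 with 28 above 0 (87.5%), against 0.10 and 72.3% of all 2166 such probes. The 32 at 10 to 12 had a median of 0.11, against 0.07. At 6 to 8 the 22 splicing factor probes had a median of -0.13 with 6 above 0 (27.3%), against -0.00 and 49.8% of all 6010. At 8 to 10 the median of 23 was -0.06, against 0.04. The 7 dimmest, under 6, had a median of 0.12 with 5 above 0, against 0.04 for all such probes. After lowess centring, which fits the trend that all probes share, the medians were 0.07 over 12, -0.12 at 6 to 8 and 0.14 under 6, against -0.00, 0.00 and 0.07 for all probes. The part of cross-hybridisation, probe position or transcript variants in this was not tested.

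**Figure D3:**
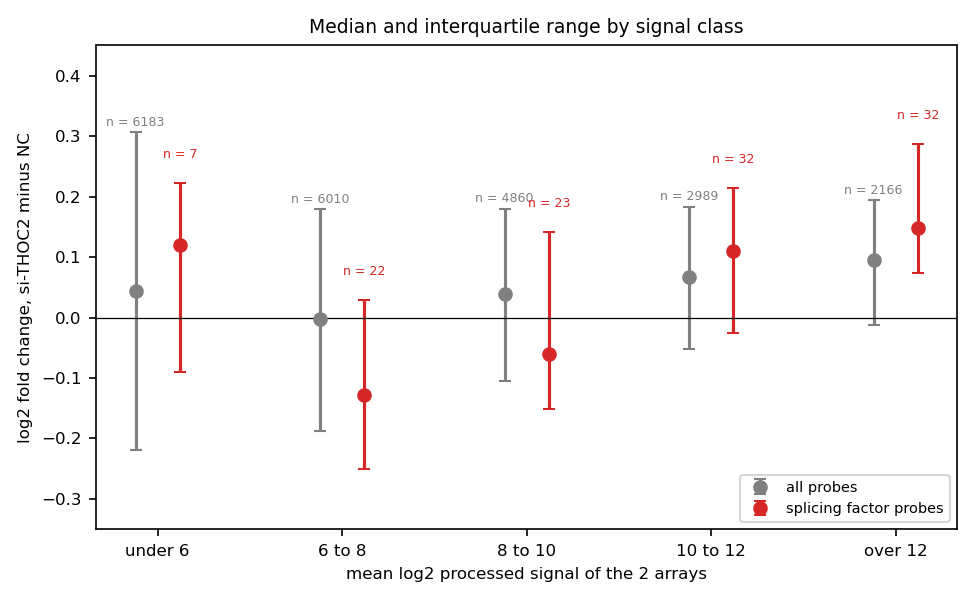
Median (points) and interquartile range (bars) of the log2 fold change (si-THOC2 minus NC) by mean log2 processed signal, for all probes on both arrays (grey) and splicing factor probes (red), with the number of probes above each. The red median lies below the grey one at 6 to 8 (-0.13 and -0.00) and above it over 12 (0.15 and 0.10).

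When the genes were grouped by their place in the spliceosome, most group medians lay within 0.15 of 0 and several changed side with the processing. The tri-snRNP PRPF proteins (median 0.27) and SF3A subunits (0.24) had the highest medians, and the PRPF proteins outside the tri-snRNP and U1 the lowest (-0.21, from 7 probes with 5 below 0). These groups kept their side under lowess, quantile and normexp. The tri-snRNP group holds only its PRPF proteins, and other tri-snRNP proteins are given below. The medians of the U1 proteins, SF3B subunits, U2AF, hnRNP F and H proteins and hnRNP K, L, M and R proteins were above 0 as scaled here and below 0 under normexp. Groups of 3 to 16 probes from 1 array pair carry no error between cultures.

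**Figure D4:**
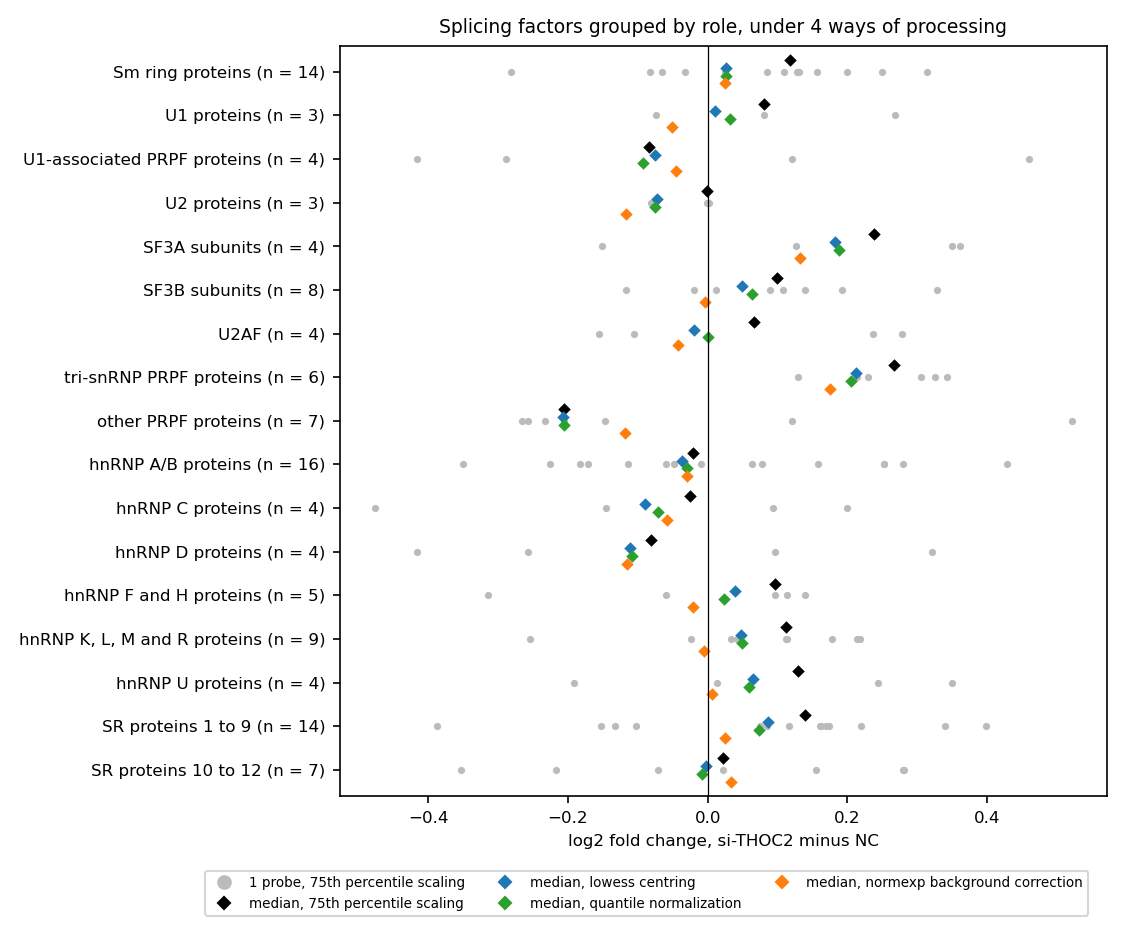
Log2 fold change (si-THOC2 minus NC) of splicing factor probes grouped by role (grey points, n is the number of probes on both arrays), with the group median under 75th percentile scaling (black), lowess centring (blue), quantile normalization (green) and normexp (orange). The tri-snRNP PRPF group has all points and medians above 0, and the medians of several other groups change side.

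Other genes of the pathway came from 7 lists of 155 genes. Over all probes on both arrays the median was 0.04, or 0.01 after lowess centring and 0.0002 under normexp. Among 30 U1, U2 and tri-snRNP proteins outside the symbols above, the median of 41 probes on both arrays was 0.08. It was 0.02 after lowess centring, and 0.01 under normexp over the 42 probes compared. Of the 41 probes 2 were lower by 2-fold or more and none higher, against 0.365% and 0.829% of all probes on both arrays. These were DDX46, the helicase that remodels U2 before it pairs with the branch site, at 66.2 and 24.2 (-1.14), and U2SURP, a U2-associated protein named after its value was seen, at 73.1 and 27.2 (-1.12). DDX46 was -0.36 under normexp, and both signals were low. PHF5A, a small SF3B subunit, was the highest of this list at 930 and 991 (0.40). Among tri-snRNP proteins of this list, DDX23 (0.23) and EFTUD2 (0.20) were highest. SNRNP200, TXNL4A, SART1, USP39, NHP2L1 and SNRNP40 had gene means from 0.10 down to 0.04, SNRNP27 -0.04 and PPIH -0.13. These tri-snRNP genes were named after their values were seen.

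In the list of the Prp19 complex, step factors and helicases, no probe of 34 passed 2-fold and the median was 0.08. CWC22, which recruits the exon junction helicase to the spliceosome, was lowest at 45.0 and 23.1 (-0.65, and -0.16 under normexp), and XAB2, a Prp19-associated scaffold, was highest at 50.01 and 63.7 (0.66, and 0.33 under normexp). LSm proteins form rings on RNA, among them the ring that caps the end of U6 and the decay ring of the cytoplasm. Among 10 LSm genes the median of 11 probes was 0.12. It was 0.07 after lowess centring, and -0.02 under normexp over the 12 probes compared. Gene means ran from LSM7 at 11259 and 7576 (-0.26) to LSM3 at 4790 and 4597 (0.25). A dim second LSM3 probe gave 26.2 and 13.0 (-0.71). For the SMN complex and other snRNP assembly factors the median of 19 probes was 0.09, or 0.05 after lowess centring and 0.04 under normexp. Gene means ran from GEMIN2 (60.4 and 43.5, -0.16, and 26.9 and 21.4, -0.02) to GEMIN4 (817 and 835, 0.34). None of the LSm or assembly probes passed 2-fold, against 0.365% lower and 0.829% higher of all probes on both arrays.

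Kinases of SR proteins and SR-like regulators had a median of 0.01 over 23 probes, or -0.00 after lowess centring. The kinase DYRK1A had the lowest probe on both arrays, at 35.3 and 18.6 (-0.62), the single probe of these 23 past 1.5-fold. Its gene mean over the probes on both arrays was -0.39, and gene means ran from SREK1, an SR-related regulator, at 107.4 and 61.1 (-0.50) to RNPS1, a splicing activator of the exon junction, at 1951 and 1925 (0.29). Among 39 other alternative splicing regulators the median of 55 probes was 0.11. It was 0.06 after lowess centring, and 0.01 under normexp over the 56 probes compared. TAF15, an RNA-binding protein, gave 2820 and 4641 (1.03), and was the single probe of this list past 2-fold. It was 0.96 after lowess centring and 0.88 under normexp, just short of 2-fold. PTBP2, the neuronal relative of the polypyrimidine tract repressor, was lowest at 131 and 65.5 (-0.70, and -0.41 under normexp). Exon junction and nonsense-mediated decay factors had a median of 0.08 over 23 probes, or 0.01 after lowess centring and 0.002 under normexp. Gene means ran from UPF3B (122 and 85.6, -0.20) to SMG6 (159 and 155, 0.27). None of these 23 probes passed 1.5-fold, against 2.94% lower and 3.84% higher of all probes on both arrays.

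The promoters of 63 of the 70 genes were found in the RefSeq table, each a window of 300 bases around the gene start. Their median GC content was 62.0%, against 62.7% for 15843 protein-coding genes. The motif CCGGAAG, read on either strand, was present in 22 (34.9%) of them, against 14.2% of all. TATAAA on either strand was present in 7 (11.1%), against 9.63% of all. A match describes the letters in this window and not binding.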

How the data were processed

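One-colour Agilent SurePrint G3 v3 arrays held RNA of A375 cells, 1 array for NC and 1 for si-THOC2. The authors deposited spot intensity values from Agilent Feature Extraction 10.7.1.1 (version per the submitters' processing notes), background-subtracted, with flags for outliers and for signals well above background. They also deposited normalized log2 values, whose sorted values differ between the arrays by at most 0.000788, and a comparison table with fold changes, which was not used. Unflagged spots of a probe were averaged as log2, and each array was reduced by its 75th percentile. A probe was compared when 1 array or both called it well above background (42.3% of probes on NC, 39.4% on si-THOC2). Among member spots 1 was flagged and 0 were saturated.

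The alternatives were quantile normalization, median scaling, lowess centring (span 0.3), normexp (offset 50), other detection rules, the authors' values, centring by 128 blocks of spots, a fold of 3, and genes in place of probes. Genes to name were THOC2, members past 2-fold, the lowest, highest and brightest gene of each family, genes with no detected probe, and the extremes of each list. Members outside that rule were named after their values were seen. Some items are not reported here. The members and lists were chosen with earlier results of these data known. The calculation was tested on simulated data. The test named in the methods was left out, since it needs replicate arrays. Python 3.11.15 (numpy 2.4.6, pandas 2.3.3, scipy 1.17.1, statsmodels 0.14.6) and R 4.3.3 (limma 3.58.1) were used.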

Additional observations from a re-analysis of the deposited data

How the results depend on the processing

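The counts of 1 probe lower and 1 probe higher by 2-fold or more each became 0 under normexp, with detection required on both arrays, when dim signals were set to their limit and with genes in place of probes, and the count higher also became 0 at a fold of 3. At 1.5-fold the count lower became 0 under normexp, with detection on both arrays and with dim signals set to their limit, and the count higher became 0 under normexp, with both arrays required and with genes in place of probes. Both probes are dim on 1 array, which requiring both arrays removes by construction. Under normexp, the offset of which shrinks low signals, the PRPF4B probe was 0.41 and the HNRNPA2B1 probe -0.09, and the cause was not tested further. A gene mean averages each of these probes with the other compared probes of its gene. It was 0.25 for PRPF4B and -0.67 for HNRNPA2B1. The median log2 fold change over the 118 probes, 0.09, was -0.0025 under normexp and between 0.03 and 0.10 elsewhere. In all, 41 of the 57 values of these counts and medians were classed as unchanged. For a median this meant within 0.06 of the main value, so that 0.03 in place of 0.09 was still classed so. This was the case under quantile normalization, lowess centring, the authors' values and scaling on the probes of both arrays. Scaling on the probes of both arrays was added after the data were seen and moved the median over all compared probes from 0.03 to -0.03. Without the detection filter that median was 0.31, and the splicing factor median was 0.10. No paired analysis was possible because each condition has 1 array. Low signal limits what can be said of SRSF1, SRSF12 and the dim probes of SNRPE, SNRPC and PRPF4B.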
